A study of Mus musculus with 12 samples.

Results

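The data described here come from the 6 Mouse Exon 1.0 ST arrays among the 12 arrays of the series, 3 labelled 0 h and 3 labelled 24 h. They were chosen by their titles. The arrays carry 23238 transcript clusters, each of which summarises probes spread along the exons of a transcript, and 14939 clusters had 1 gene symbol, for 14807 genes. PUER cells derive from mouse myeloid progenitors without a working Spi1 gene, into which a fusion of PU.1 with the hormone-binding domain of the estrogen receptor was put. All groups, the 0 h controls included, thus carried the fusion, and all grew in medium with 5 ng/ml interleukin-3 (IL-3) and puromycin. The 0 h group is described as uninduced, and the 24 h group as induced for 24 h with 100 nM 4-hydroxytamoxifen (OHT), which switches the fusion on as a protein. The other 6 arrays, of the Mouse Genome 430 2.0 design (here the 430 arrays), have the same 2 conditions with 3 arrays each. Neither design has a group kept for 24 h without OHT, so time in culture and OHT cannot be told apart. The line is a single cultured line, and the labels do not say whether the 3 arrays of a group came from separate cultures. The p-values therefore set a difference between groups against the scatter of these arrays, and that scatter may be technical.

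The ETS family factor PU.1 binds purine-rich sites and is needed for macrophages and B cells to form. In myeloid progenitors a high PU.1 activity turns on receptors, adhesion molecules and lysosomal enzymes of macrophages, while genes of the progenitor state and of proliferation are turned down. Its reported targets include the genes of CD11b (Itgam), of the receptor for macrophage colony-stimulating factor (Csf1r) and of a surface antigen used to mark mature macrophages (Adgre1).

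These 3 genes were read first, because they bear on the labels. Itgam had log2 signals of 8.30, 8.17 and 8.47 on the exon arrays labelled 0 h and of 5.65, 5.42 and 5.52 on those labelled 24 h. Csf1r had 6.55, 6.41 and 6.35 against 4.56, 4.67 and 4.58. Adgre1 had 9.63, 9.44 and 9.55 against 3.97, 3.95 and 3.88. All 3 were lower in every exon array labelled 24 h than in any labelled 0 h, with log2 changes of -2.78 ± 0.114, -1.83 ± 0.0894 and -5.61 ± 0.0864 (limma's moderated SE; adjusted p = 5.14e-05, 0.000106 and 3.32e-06). On the 430 arrays Itgam ran the other way, from 4.79, 4.89 and 4.88 at 0 h to 7.58, 7.51 and 7.56 at 24 h. Csf1r went from 6.07, 6.68 and 6.37 to 10.06, 10.14 and 10.11 there, and Adgre1 from 5.48, 4.43 and 4.49 to 11.15, 11.16 and 10.98. In a limma model over both designs, the 430 change minus the exon change was 5.48 ± 0.123 for Itgam, 5.56 ± 0.167 for Csf1r and 11.90 ± 0.279 for Adgre1 (adjusted p = 3.18e-14, 8.03e-13 and 5.15e-14). Among all 13356 genes on both designs, 58.0% were called in such a test.

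The labels of the exon arrays thus run against those of the 430 arrays and against the known direction of these targets. The values alone cannot tell which design carries the direction of the culture, so each result below is given for the arrays as labelled. A log2 change is the mean of the arrays labelled 24 h minus that of the arrays labelled 0 h. Exchanging the 2 exon labels would turn the sign of every change and leave its size, its error and its p-value as they are. The genes of the fusion do not settle the direction of the labels. Spi1, which encodes PU.1, had 11.87, 11.81 and 11.87 in the arrays labelled 0 h and 11.99, 12.08 and 12.28 in those labelled 24 h, a difference of 0.27 ± 0.1 that missed the threshold (adjusted p = 0.116). Esr1, the estrogen receptor gene, had 7.74, 7.64 and 7.65 against 8.0, 7.90 and 7.89 (adjusted p = 0.0712). It passed with a variance trend (0.0429), without dim clusters, those below the median level (0.0334), over clusters with 1 symbol (0.0374) and with gene means (0.0372).

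**Figure D1:**
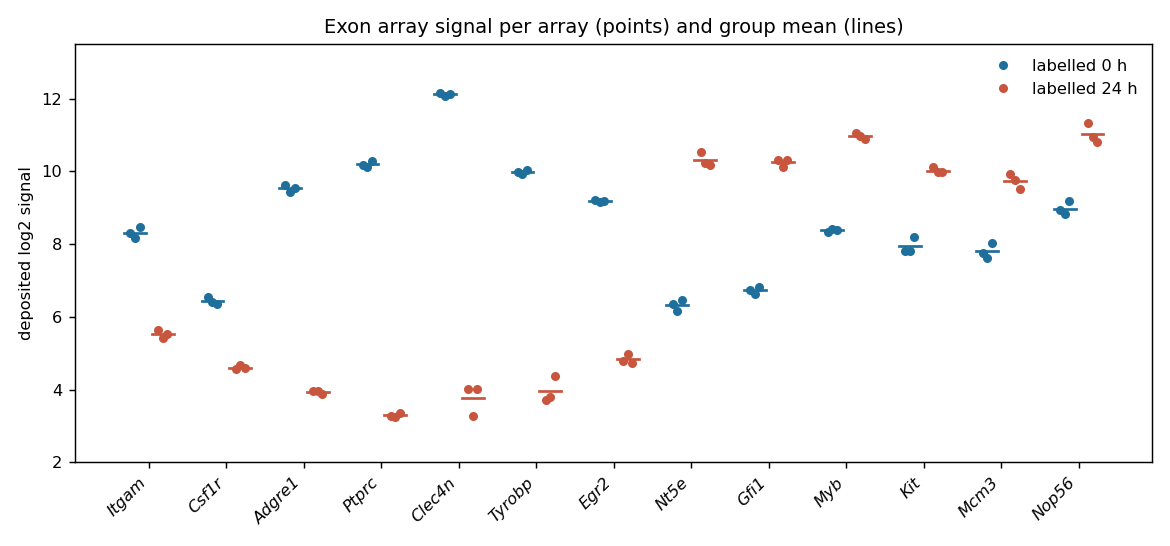
Deposited log2 signal (y axis) of 13 genes (x axis) on each exon array. Points are single arrays, 3 per group, and lines are group means; blue stands for arrays labelled 0 h and red for arrays labelled 24 h. Values do not overlap between groups for any of these genes, which were picked by hand, beside 47.2% of all genes without overlap. The macrophage genes shown on the left are lower in the arrays labelled 24 h, and the progenitor and growth genes shown on the right are higher. Some macrophage and progenitor genes not shown overlapped or went the other way.

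Arrays of 1 group correlated at r = 0.985 to 0.989 across clusters and arrays of different groups at 0.958 to 0.965. The median SD over 3 arrays was 0.139 log2 units at 0 h and 0.153 at 24 h. Array medians lay between 5.39 and 5.42, while the upper quartile was higher in the arrays labelled 24 h (7.85 to 7.96) than in those labelled 0 h (7.67 to 7.78). The table has no detection calls. As a guide to its low end, the means of 718 olfactory receptor clusters, genes of a sensory tissue, had a median of 2.73 and a 95th percentile of 4.94. In bulk RNA, fewer cells of a type and less RNA per cell cannot be told apart.

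Across all clusters, 3709 (16.0%) had a signal called higher at the 24 h label, while 2070 (8.91%) were called lower there, at a Benjamini-Hochberg adjusted p under 0.05. The higher calls made up 64.2% of all calls, and 54.1% after quantile normalization. Among the 14807 genes, 19.3% were called higher and 10.8% lower. The lower genes changed more. At 2-fold or more, 729 genes (4.92%) were higher and 554 (3.74%) lower. Values of the 2 groups did not overlap in 47.2% of all genes. At 4-fold or more the counts were 82 and 175, and at 8-fold or more 13 and 87. No gene was 32-fold higher, whereas 21 were 32-fold lower. With quantile normalization the counts at 8-fold were 12 and 88, so the skew at that size was the same, while the order at 2-fold turned to 541 higher and 663 lower. Of the 45 genes at least 16-fold lower, 36 had a 24 h mean under 4.94, where a fold may be understated. Of the 7310 clusters without a symbol 9.88% were called higher and 4.99% lower, and their median level was 4.52 against 6.01 for clusters with 1 symbol.

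**Figure D2:**
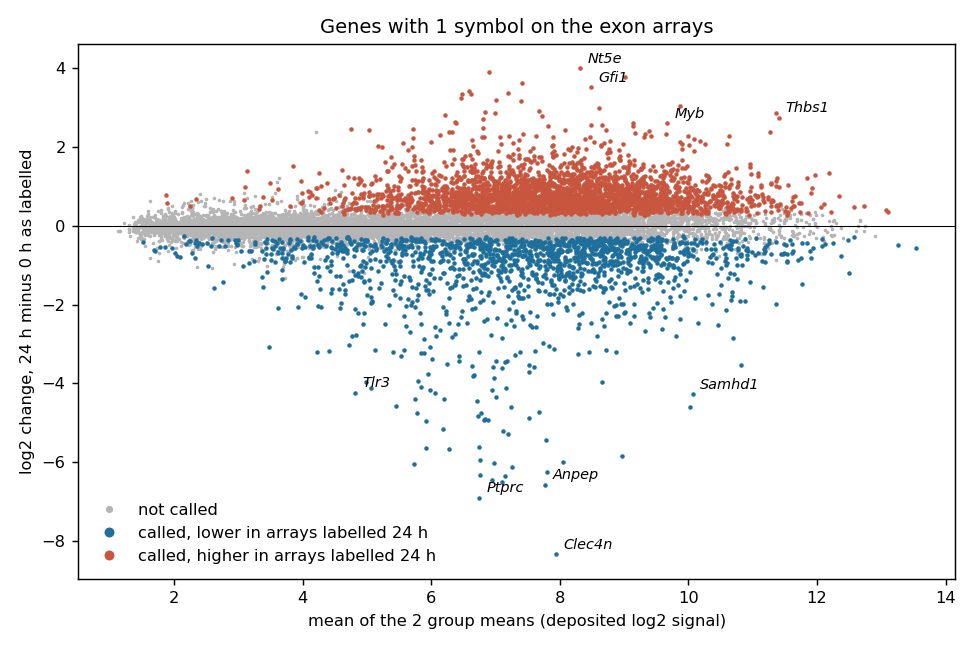
Log2 change as labelled (y axis) against the mean of both group means in deposited log2 signal (x axis) for 14807 genes with 1 symbol. Grey points were not called, blue were called lower and red called higher in the arrays labelled 24 h; the lower calls reach to -8.34 (Clec4n) and the higher ones to 3.99 (Nt5e).

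The genes with the largest signal in the arrays labelled 0 h relative to those labelled 24 h included lectin and immune receptors, signalling adaptors, a phosphatase, proteases and a cytokine. Clec4n, which encodes the fungal receptor dectin-2, had 12.14, 12.08 and 12.12 at 0 h and 4.02, 3.28 and 4.03 at 24 h. Ptprc, the leukocyte phosphatase CD45, had 10.17, 10.13 and 10.29 against 3.27, 3.26 and 3.36. Anpep, the surface aminopeptidase CD13, had 11.07, 11.11 and 10.99 against 4.30, 4.59 and 4.59, a 94.8-fold difference (adjusted p = 3.37e-06). In each of these genes the groups lay several log2 units apart. The macrophage elastase Mmp12 was 90.9-fold lower in the arrays labelled 24 h, the adaptor Sla 86.9-fold, the inhibitory receptor gene Pilra 81.4-fold and the lectin gene Clec4a1 79.5-fold. The small leukocyte surface protein Cd52 was 75.6-fold lower and the intracellular protease inhibitor Serpinb12 66.4-fold. Il1r2, the decoy receptor for interleukin-1, was 61.4-fold lower, the ganglioside-binding lysosomal cofactor Gm2a 57.3-fold and the cytokine gene Il18 51.1-fold. Groups did not overlap in any of the 15 largest changes on this side, where non-overlap was part of the rule that names them.

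Fewer genes were far higher in the arrays labelled 24 h, and they were a more mixed set. Nt5e, the ecto-enzyme CD73 that makes adenosine, had 6.35, 6.16 and 6.47 at 0 h and 10.53, 10.24 and 10.18 at 24 h. Dio2, a thyroid hormone deiodinase, had 4.78, 4.97 and 5.13 against 9.10, 8.77 and 8.68, and Egln3, an oxygen-dependent prolyl hydroxylase, 7.06, 7.13 and 7.17 against 10.85, 10.92 and 10.93. These were the highest changes of the table, and none reached 16-fold. Tissue transglutaminase (Tgm2) was 12.2-fold higher, the flavin monooxygenase Fmo1 10.7-fold and the EGF-family ligand gene Nrg4 10.2-fold. Genes better known from lymphocytes stood among them, with the granule gene Nkg7 10.3-fold and the T-cell receptor signalling inhibitor Ubash3a 10.2-fold higher. The aldehyde dehydrogenase Aldh3a1 was 9.05-fold, the adhesion receptor CD97 (Adgre5) 8.89-fold and the neutrophil granule gene Ngp 7.89-fold higher. Adgre5 thus went the other way from Adgre1, a gene of the same receptor family.

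Promoter sequences are shown here because PU.1 and the E2F factors of the cell cycle bind short known motifs, and the shares of promoters with these motifs can be set beside the direction of change. RefSeq promoters (GRCm38.p6, 250 bases before to 50 after the start) were found for 11855 of the 14807 genes, 14876 promoters in all. The PU.1-type motif AGGAAGT stood on either strand in 8.44% of these, in 9.04% of 730 promoters of genes at least 2-fold higher in the arrays labelled 24 h, in 14.9% of 604 promoters of genes at least 2-fold lower and in 21.8% of 101 promoters of genes at least 8-fold lower. A gene can have several promoters, and these last sets came from 581, 458 and 71 genes. The E2F-type motif TTCCCGC ran the other way, with 6.57% of all promoters, 10.0% on the higher side, 4.14% on the lower side and 1.98% of those 8-fold lower. It stood in 15 of 27 promoters of DNA replication genes (55.6%). The E-box CACGTG, the site of MYC and related factors, stood in 8.62% of all, 10.8% of the higher and 8.61% of the lower promoters. The PU.1-type matches overlapped a match of another motif in 2 promoters. Median GC content was 58.3% in all promoters and 52.3% in those of the genes 8-fold lower, and its part in these shares was not tested. These are shares of letters in a window and were not tested. They do not show that a factor binds there.
Below are 4 promoters with the PU.1-type motif, from the genes with the largest lower changes that hold it, and 2 with the E2F-type motif, from replication genes chosen after their values were seen. Capitals mark the motif for which each promoter was chosen, as it stands on the printed strand, which for TTCCCGC can read GCGGGAA and for AGGAAGT can read ACTTCCT.
Ptprc: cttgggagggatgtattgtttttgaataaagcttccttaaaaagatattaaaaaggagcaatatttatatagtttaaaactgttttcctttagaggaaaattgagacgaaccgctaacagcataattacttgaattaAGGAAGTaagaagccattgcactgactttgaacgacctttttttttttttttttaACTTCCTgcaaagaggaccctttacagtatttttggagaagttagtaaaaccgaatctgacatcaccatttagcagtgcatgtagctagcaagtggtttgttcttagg
Mmp12: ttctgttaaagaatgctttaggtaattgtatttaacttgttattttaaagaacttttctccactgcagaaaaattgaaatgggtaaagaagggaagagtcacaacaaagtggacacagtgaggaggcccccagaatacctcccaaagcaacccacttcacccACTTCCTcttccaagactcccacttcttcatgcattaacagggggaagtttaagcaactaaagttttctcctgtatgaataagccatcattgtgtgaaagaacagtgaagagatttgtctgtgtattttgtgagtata
Pilra: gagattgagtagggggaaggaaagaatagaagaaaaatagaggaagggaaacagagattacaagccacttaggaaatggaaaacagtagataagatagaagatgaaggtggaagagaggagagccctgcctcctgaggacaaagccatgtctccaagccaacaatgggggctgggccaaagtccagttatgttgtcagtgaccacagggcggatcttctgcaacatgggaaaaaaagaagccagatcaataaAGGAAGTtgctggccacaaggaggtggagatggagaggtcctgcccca
Ctsc: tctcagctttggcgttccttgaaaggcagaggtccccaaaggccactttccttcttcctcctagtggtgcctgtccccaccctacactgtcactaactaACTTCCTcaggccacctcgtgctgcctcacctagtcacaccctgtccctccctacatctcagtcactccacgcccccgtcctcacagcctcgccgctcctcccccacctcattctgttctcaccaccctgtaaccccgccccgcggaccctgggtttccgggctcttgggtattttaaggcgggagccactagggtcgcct
Mcm3: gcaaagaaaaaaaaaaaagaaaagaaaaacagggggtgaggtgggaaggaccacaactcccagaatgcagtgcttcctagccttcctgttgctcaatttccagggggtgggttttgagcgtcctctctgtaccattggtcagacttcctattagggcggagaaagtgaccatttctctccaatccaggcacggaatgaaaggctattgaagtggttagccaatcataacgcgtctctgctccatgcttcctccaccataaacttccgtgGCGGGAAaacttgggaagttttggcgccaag
Chaf1b: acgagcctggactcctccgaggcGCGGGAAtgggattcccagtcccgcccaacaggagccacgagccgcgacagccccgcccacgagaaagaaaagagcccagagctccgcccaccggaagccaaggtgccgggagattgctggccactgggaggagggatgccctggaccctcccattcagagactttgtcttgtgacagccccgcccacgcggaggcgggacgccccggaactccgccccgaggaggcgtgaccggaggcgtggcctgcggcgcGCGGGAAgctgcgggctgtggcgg
The Ptprc promoter (chr1:138175256-138175555, minus strand) holds 2 matches, the first starting 113 bases before the annotated start. Ptprc and Mmp12 each have 2 promoters in the table, of which 1 is shown. Those of Mmp12 (chr9:7344147-7344446, plus strand), Pilra (chr5:137836229-137836528, minus strand) and Ctsc (chr7:88277835-88278134, plus strand) hold 1 each. Mcm3 (chr1:20820263-20820562, minus strand) holds 1 E2F-type match, and also 1 PU.1-type match that is left in lower case, and Chaf1b (chr16:93883651-93883950, plus strand) 2.

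**Figure D3:**
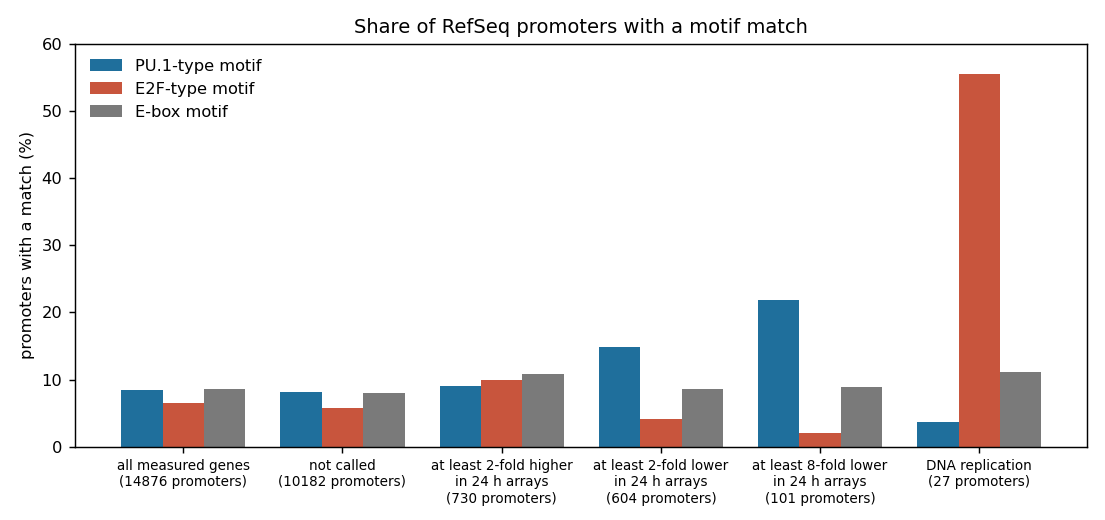
Percent of RefSeq promoters with a match of each motif (y axis, bars start at 0) for 6 sets of genes (x axis, with the number of promoters). The PU.1-type share goes from 8.44% of all promoters to 21.8% of those of genes 8-fold lower in the arrays labelled 24 h, and the E2F-type share is 55.6% in DNA replication genes.

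Gene lists of known function were then read member by member. Each list is set against 30.1% of all genes called in either direction and a median log2 change over all genes of 0.01. Receptors with C-type lectin domains and paired immune receptors had the lowest median, at -2.54. Of 23 measured members, 17 were called lower in the arrays labelled 24 h and 1 higher. Clec4a3 had 8.84, 8.81 and 8.57 at 0 h and 3.08, 3.09 and 3.16 at 24 h. The sialic acid receptor gene Siglece had 9.77, 9.69 and 9.68 against 4.45, 4.52 and 4.56, with no value between the groups. The higher member was Clec5a, a DAP12-coupled lectin, at 0.46 ± 0.0863 (adjusted p = 0.0111; 0.0567 with the replicate number as a block).

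Fc receptors, ITAM adaptors and the kinases next to them had 16 of 26 lower and 1 higher, with a median of -0.68. The shared signalling chains lay far apart between groups. Tyrobp (DAP12) had 9.98, 9.92 and 10.04 against 3.72, 3.80 and 4.37, and Fcer1g, the common Fc receptor chain, 11.21, 10.84 and 11.09 against 5.14, 4.84 and 5.21. The linker Blnk was 9.3-fold lower. The higher member was Fcgr4, an activating IgG receptor, with 5.76, 5.69 and 6.0 against 6.95, 6.93 and 7.31 (1.24 ± 0.144, adjusted p = 0.00195). Fcgr4 therefore differed in direction from the chain with which its protein signals.

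Macrophage identity genes were called lower in 14 of 26 cases and higher in 4 (median -0.63, and -1.83 without clusters below the median level). The monocyte chemokine receptor Ccr2 had 10.28, 10.15 and 10.50 against 4.43, 4.17 and 4.00. The lysosomal protease Lgmn was 26.2-fold and Mertk, a receptor for apoptotic cells, 17.2-fold lower. The 4 higher members were Fcgr4, the membrane glycoprotein gene Gpnmb (0.71 ± 0.0896), the lipoprotein gene Apoe (0.50 ± 0.109) and the matrix protein gene Emilin2 (0.30 ± 0.0782). Apoe and Emilin2 passed narrowly (adjusted p = 0.0196 and 0.0376). Both lost the call with quantile normalization (0.055 and 0.137). Emilin2 also lost it with the replicate block (0.121) and without any 1 of the 6 arrays, and Apoe without 0 h array 1 or 2 or 24 h array 2 or 3. Of 25 reported PU.1 targets 21 were lower and 1, the oxidase subunit Ncf4, higher, with a median of -1.28. The list gathers genes known from macrophages, so it overlaps others: Ctss, a cysteine protease, was 21-fold and Cybb, the catalytic oxidase subunit, 13.8-fold lower.

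Transcription factors of myeloid cells leaned lower among those called. Of 31, 12 were lower, 2 higher and 17 not called (median -0.20). The lower members were led by early response factors: Egr2, which supports macrophage differentiation, had 9.22, 9.16 and 9.19 against 4.80, 4.97 and 4.73. The AP-1 subunits Fos and Jun were 12.3-fold and 9.19-fold lower and the nuclear receptor Nr4a1 6.99-fold. The 2 higher members both belong to the C/EBP family of granulocyte differentiation. Cebpe had 5.79, 5.39 and 5.77 against 7.21, 7.33 and 7.47 (1.68 ± 0.141, adjusted p = 0.000642). Cebpa showed 0.59 ± 0.112 (adjusted p = 0.0115; 0.0512 with the replicate block). Irf8, a factor of monocyte development, overlapped between the groups at 4.84 to 5.09 and 4.95 to 5.16 (adjusted p = 0.555). These values lie near 4.94, the 95th percentile of the olfactory receptor clusters, where a change may be understated.

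Among 27 progenitor transcription factors 7 were higher and 3 lower, with a median of 0.00 (0.27 without clusters below the median level) and a maximum of 3.51. The share called was 37.0%, beside 30.1% of all genes, so what follows concerns single genes. Gfi1, a repressor of progenitors and granulocytes, had 6.74, 6.64 and 6.83 against 10.30, 10.12 and 10.32. Myb had 8.34, 8.40 and 8.38 against 11.05, 10.97 and 10.89, and Myc 10.04, 10.14 and 10.21 against 11.15, 11.20 and 11.19. The groups lay apart for each of them. The ETS factor Fli1 was 3.7-fold and Hlf, a factor of stem cells, 2.36-fold higher. The 3 lower ones changed little: Ikzf1 by -0.60, Sox4 by -0.55 and Runx1 by -0.41, with calls lost under the replicate block for Ikzf1 (0.0526) and Runx1 (0.0694). Ikzf1 was also lost without 24 h array 2, and Runx1 without any 1 of the 0 h arrays or without 24 h array 2. Gata1 and Gata2, factors of other myeloid and erythroid fates, overlapped between groups (adjusted p = 0.972 and 0.473).

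Growth factor receptors and progenitor surface genes had 2 of 14 higher and 2 lower (median -0.05). The share called was 28.6%, near the 30.1% of all genes, so what follows concerns single genes. Kit, the stem cell factor receptor, had 7.82, 7.82 and 8.20 against 10.12, 9.97 and 9.97. Csf3r, the receptor of granulocyte colony-stimulating factor, was lower (log2 change -1.20 ± 0.0844), as Csf1r was. The IL-3 receptor chains showed less: Il3ra had 9.10, 9.18 and 9.03 against 8.76, 8.72 and 8.89 (adjusted p = 0.0516), and Csf2rb 10.43, 10.35 and 10.37 against 10.32, 10.19 and 10.00 (adjusted p = 0.218). Il3ra passed under 5 alternatives, with adjusted p from 0.0206 without dim clusters to 0.0281 with the variance trend, and Csf2rb with quantile normalization (0.045). Cd34, a marker of early progenitors, lay between 3.56 and 3.86 on all 6 arrays. The cells thus had signal for the IL-3 receptor in both groups, while Cd34 gave values inside the range of the olfactory receptor clusters.

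Innate sensing and chemotaxis genes leaned lower. Toll-like receptor and signalling genes had 13 of 28 lower and 1 higher (median -0.18, and -0.32 without clusters below the median level). The endosomal receptors differed among themselves: Tlr8 was 26.7-fold and Tlr3 18.8-fold lower, whereas Tlr7 had 6.88, 6.48 and 7.12 against 8.64, 8.66 and 8.43 and was 3.36-fold higher. Ly96, the co-receptor of Tlr4, and the inflammasome sensor Nlrp3 were 8.87-fold and 8.8-fold lower. Of 19 chemoattractant and nucleotide receptors 9 were lower and 1 higher (median -0.46, and -0.76 without dim clusters). The number of lower calls fell to 5 without 0 h array 3 and to 5 with the replicate block; it was 6 without 0 h array 1 or 2 or 24 h array 2 or 3. P2ry6, a receptor for uridine diphosphate, was 10.8-fold and the fractalkine receptor gene Cx3cr1 9.17-fold lower. Cxcr4, which holds progenitors in the marrow, was the higher member at 8.57, 8.34 and 8.53 against 10.90, 10.80 and 10.71.

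Cytokines had 9 of 30 lower and 4 higher. Their median of -0.16 was -0.05 without 0 h array 2 or 24 h array 1 and -0.42 without dim clusters. The chemokine gene Cxcl2 was 12.1-fold and Tnf 4.37-fold lower. Tnfsf13b, the B-cell survival factor BAFF, was 4.33-fold higher, and the chemokine gene Ccl9 2.06-fold. The others higher were Vegfa (0.78 ± 0.0849) and Il12a (0.41 ± 0.0946), and the Il12a call was lost without 0 h array 2 or any 1 of the 24 h arrays, and with the replicate block (adjusted p = 0.0729). Interferon response genes had 10 of 20 lower and 2 higher (median -0.38, and -0.78 without dim clusters). Samhd1, which breaks down deoxynucleotides, had 12.19, 12.17 and 12.23 against 8.17, 7.89 and 7.74. Gbp3, a guanylate-binding protein, was 4.72-fold and Ifit2 2.18-fold higher, the reverse of Ifit1, at -2.04 ± 0.521. The Ifit1 values at 24 h spread from 2.43 to 4.41, and its call (adjusted p = 0.0345) held without 24 h array 3 but was lost without any 1 of the other 5 arrays. Antigen presentation genes had 7 of 15 lower and 1 higher. Cd80, a costimulatory ligand, was 30.5-fold and the invariant chain Cd74 9.34-fold lower, and the peptide transporter subunit Tap2 was higher by 0.52 ± 0.0968.

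In the lysosome list 19 of 32 were lower and 0 higher by limma (median -0.53). Man2b1, a mannosidase, was 3.57-fold lower and Ctsc, which activates granule proteases, had 10.43, 10.47 and 10.61 against 5.28, 5.11 and 4.79. The phagocyte oxidase subunits differed in direction, with Cybb and Cyba lower (-0.78 ± 0.151 for Cyba, lost without 24 h array 2 at 0.052) and Ncf4 higher, of 6 measured. Complement and scavenger receptors had 7 of 21 lower and 1 higher (38.1% called, beside 30.1% of all genes). The mannose receptor Mrc1 was 4.33-fold lower and the oxidised lipoprotein receptor Olr1 5.84-fold higher. Integrins and adhesion genes had 11 of 23 lower and 3 higher (median -0.31): the tetraspanin Cd82 was 3.93-fold lower, while Pecam1 was 2.84-fold, the integrin chain Itga6 2.29-fold and P-selectin (Selp) 1.61-fold higher.

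Granule genes of neutrophils fell on both sides, with 7 of 21 higher and 6 lower. Mmp9 had 9.36, 9.36 and 9.35 against 4.30, 4.45 and 4.52. Chil3, a chitinase-like protein, was 29.6-fold, the collagenase Mmp8 4.32-fold and myeloperoxidase (Mpo) 2.08-fold lower. By contrast Ngp and the serine proteases Elane, Ctsg and Prtn3, which were chosen after their values were seen, were higher, so Mpo differed in direction from the proteases stored with it. Markers of other cells came next. Of 20 genes of mast cells and basophils 4 were higher and 2 lower; without 24 h array 1 the higher count was 2. The share called was 30%, near the 30.1% of all genes. The mean log2 signal of that list ranged from 4.27 to 4.34 at 0 h and from 4.46 to 4.50 at 24 h. The basophil protease Mcpt8 was 2.56-fold higher and the lipoxygenase Alox5 2.45-fold lower. Of 16 erythroid and megakaryocyte genes 1 was higher, Nfe2 by 2.83-fold, with list means of 5.00 to 5.07 and 5.11 to 5.13. Lymphoid genes had 1 of 18 higher (Nkg7) and 1 lower (Cd22, -1.97 ± 0.0861), with means of 4.21 to 4.25 and 4.18 to 4.30. Of 19 stromal, endothelial and epithelial genes Pecam1 and Pdgfrb were higher and the cadherin gene Cdh5 10.4-fold lower, with means of 4.94 to 5.00 and 4.87 to 4.90. These 3 last lists had 6.25%, 11.1% and 15.8% of members called.

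**Figure D4:**
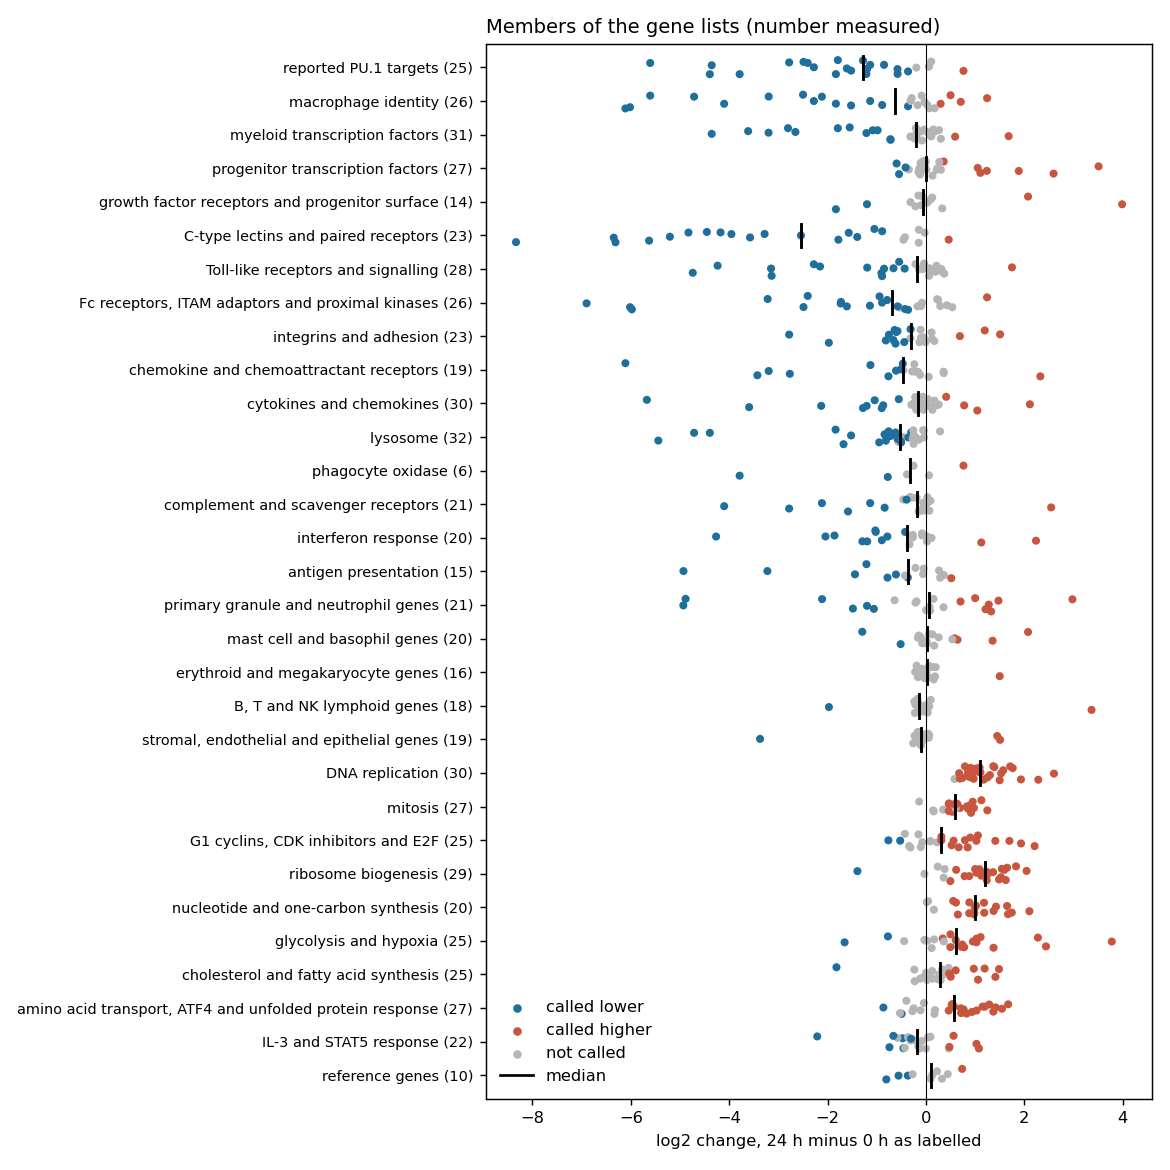
Log2 change as labelled (x axis) of each measured member of 31 gene lists (y axis, number measured in brackets). Points are genes, blue called lower, red called higher and grey not called in the arrays labelled 24 h, and black bars are medians; the lectin list has its median at -2.54, and DNA replication and ribosome biogenesis have theirs at 1.09 and 1.20.

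Proliferation genes lay on the other side. Of 30 DNA replication genes 29 were called higher in the arrays labelled 24 h and 0 lower, with a median of 1.09. Thymidine kinase Tk1 had 5.73, 4.76 and 4.76 against 7.75, 7.75 and 7.57. The replicative helicase subunit Mcm3, whose promoter is shown above, had 7.76, 7.62 and 8.02 against 9.93, 9.76 and 9.51, and the chromatin assembly subunit Chaf1b 7.03, 7.05 and 6.97 against 9.06, 8.82 and 8.47. No group overlapped in these 3. Gins1, of the helicase complex, was 4.87-fold higher. The count of replication genes called higher was within 1.5 times of 29 under every alternative run.

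Of 27 mitotic genes 20 were higher and 0 lower, by smaller steps (median 0.60). Cdk1, the mitotic kinase, had 8.43, 8.09 and 8.23 against 9.39, 9.56 and 9.54. The kinases Nek2, Ttk and Aurka were 2.19-fold, 1.97-fold and 1.93-fold higher. Without 0 h array 2 the count was 13. Regulators of the G1 phase had 14 of 25 higher and 2 lower (median 0.31, and 0.17 with quantile normalization). Cdk6 was 4.63-fold, the phosphatase Cdc25a 3.82-fold and the cyclins Ccne2 and Ccne1 3.24-fold and 2.66-fold higher. The 2 lower members restrain the cell cycle: the CDK inhibitor Cdkn1b had 8.02, 7.55 and 7.86 against 7.17, 6.86 and 7.11, and Rb1 showed -0.52 ± 0.0882. The Cdkn1b call was lost without 24 h array 2 (adjusted p = 0.052).

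Ribosome biogenesis genes had the highest median, 1.20, with 24 of 29 higher and 1 lower. Nop56, a core protein of small nucleolar particles, had 8.94, 8.81 and 9.18 against 11.32, 10.95 and 10.80. Rrp1b, Rrp12 and Nop58 were 3.56-fold, 3.14-fold and 3.08-fold higher. The lower member was Heatr1, a factor of ribosomal RNA transcription, with 9.56, 9.41 and 9.40 against 8.15, 8.12 and 7.93. On the 430 arrays Heatr1 again went against its list, 2.82-fold higher where the list's median was -1.39. Nucleotide and one-carbon synthesis genes had 17 of 20 higher and 0 lower (median 0.99). The CTP synthase gene Ctps was 4.3-fold, the serine hydroxymethyltransferase Shmt1 3.36-fold and the purine pathway enzyme Ppat 3.18-fold higher.

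Among 25 glycolysis and hypoxia genes 15 were higher and 2 lower (median 0.61). Besides Egln3, the carbonic anhydrase Car9 was 5.43-fold and the oxidoreductase Ero1a 4.85-fold higher. The 2 lower members are known hypoxia-inducible genes too: Ndrg1 had 10.71, 10.69 and 10.86 against 9.26, 9.03 and 9.01, and Ankrd37 showed -0.77 ± 0.146. Hypoxia genes therefore did not all move together. Amino acid transporters and genes of the ATF4 and unfolded protein responses had 17 of 27 higher and 2 lower (median 0.57). The cystine transporter Slc7a11 was 3.19-fold, the amino acid transporters Slc7a5 and Slc1a5 2.92-fold and 2.67-fold and the factor Xbp1 2.59-fold higher. Sesn2 and Chac1, both ATF4 targets, were lower, at -0.86 ± 0.0874 and -0.49 ± 0.0895.

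Lipid synthesis genes had 8 of 25 higher and 1 lower (median 0.28, and 0.16 with quantile normalization). The share called was 36.0%, near the 30.1% of all genes. Hsd17b7, of cholesterol synthesis, was 2.8-fold and the sterol carrier Stard4 2.29-fold higher, the acetyl-CoA carboxylase Acaca was also called higher, and the fatty acid elongase Elovl6 was 3.53-fold lower. IL-3 and STAT5 response genes were mixed, with 4 of 22 higher and 6 lower (median -0.18). The kinase Jak2 had 10.42, 10.52 and 10.51 against 8.38, 8.28 and 8.16. Mcl1, which blocks cell death, was 1.67-fold lower, and the feedback inhibitor Spry2 and the inhibitor of differentiation Id1 were 2.11-fold and 2.04-fold higher. The count of 6 lower calls became 10 with quantile normalization, without dim clusters, over clusters with 1 symbol and with gene means. Of 10 reference genes 1 was higher (Hprt, 0.74 ± 0.0937) and 3 lower. Gusb, which is also a lysosomal enzyme, changed by -0.80 ± 0.0851 and the actin gene Actb by -0.56 ± 0.0839.

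Several of the lower genes are neighbours on a chromosome. In gene order (GRCm38.p6, measured genes only), 104 of 553 genes that were at least 2-fold lower had an adjacent gene that was too (18.8%), and 120 of 728 on the higher side did (16.5%). Over all genes, 3.74% were at least 2-fold lower and 4.92% at least 2-fold higher. The share with such a neighbour by placement alone was not computed, so these shares do not show more clustering than placement gives. The longest run held 7 genes on chromosome 6, Clec4a1, Clec4a3, Clec4a4, Clec4b1, Clec4b2, Clec4n and Clec4d, all of the dectin-2 family of lectins. Their changes ranged from -1.74 (Clec4b1) to -8.34 (Clec4n). Close sequence between members of this family means that probes may share signal, which was not tested. A run of 5 on chromosome 11 held the lipid transporter genes Abca8b, Abca8a, Abca9, Abca6 and Abca5, between -1.37 and -3.21. On the same chromosome the receptor genes Cd300a, Cd300lb, Cd300c and Cd300ld ran from -1.40 to -4.45. Chromosome 1 held the interleukin-1 receptor genes Il1r2, Il1r1 and Il1rl2, at -5.94, -4.58 and -2.80, and chromosome 10 held Reep3, Jmjd1c and Egr2, at -1.01, -1.34 and -4.36. On the higher side the longest run was 4 genes, Pigw, Myo19, Znhit3 and Car4 on chromosome 11, and the proteases Mcpt8, Ctsg and Gzmd stood side by side on chromosome 14. The genes of these runs were chosen after their values were seen.

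The 430 arrays give another reading of the size of each change. Of 3770 genes called on both designs 57 had the same direction, and of the 877 that also changed at least 2-fold on both, 0 had the same direction as labelled. The 1274 genes lower on the exon and higher on the 430 arrays had a median size of 0.86 log2 units on the exon and 0.95 on the 430 arrays. For the 2439 genes the other way round it was 0.75 on both designs.

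The size itself was tested as the sum of both changes, which is 0 where they are equal and opposite. It was called for 3050 genes (22.8%), 1678 above and 1372 below 0, and 42 sums were at least 2 log2 units. Of the 29 such sums above 0, 26 came from genes whose lower exon group mean was under 4.94, in the range of the olfactory receptor clusters. There the exon change may be understated, so these sums do not show that a gene changed more on the 430 arrays. Clec4n, Ptprc, Csf1r, Il1rl2, Umodl1, Marchf1 and Aqp4 all had 24 h means in that range. Clec4n had a sum of 0.19 ± 0.221 (adjusted p = 0.573). The measured change of Ptprc was 9.38 on the 430 and -6.90 on the exon arrays, and that of Csf1r 3.73 and -1.83. The rule for sums named Il1rl2, a receptor of interleukin-36, which had 6.24, 6.02 and 6.26 against 3.31, 3.26 and 3.53 on the exon arrays and a change of 7.31 on the 430 arrays. It also named Umodl1 (exon -0.35, 430 arrays 4.23), the ubiquitin ligase Marchf1 (-1.59 and 5.37) and the water channel Aqp4 (-3.80 and 7.26). Umodl1 was not called on the exon arrays (adjusted p = 0.056, but 0.0246 over clusters with 1 symbol and 0.0356 without 0 h array 1).

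Sums below 0 included genes with a larger measured change on the exon arrays. Siglec1, the macrophage receptor sialoadhesin, had 8.92, 8.65 and 8.65 against 5.01, 5.18 and 5.30 there and changed by 0.38 on the 430 arrays (sum -3.20 ± 0.129, adjusted p = 1.71e-09). The 430 values are those of the gene's probe set with the highest mean. Whether a dim probe set understated a 430 change was not tested. Siglece changed by -5.21 and 2.04 (sum -3.17 ± 0.143), with exon values at 24 h in the olfactory range. For 2 genes lower in the 430 arrays labelled 24 h the 430 change was the larger: Cited4, a transcriptional co-regulator, had 1.36 on the exon and -4.63 on the 430 arrays, and the zinc finger gene Hivep3 0.15, which was not called (adjusted p = 0.384), and -3.12. The designs probe different parts of a transcript, and whether that sets these differences was not tested.

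**Figure D5:**
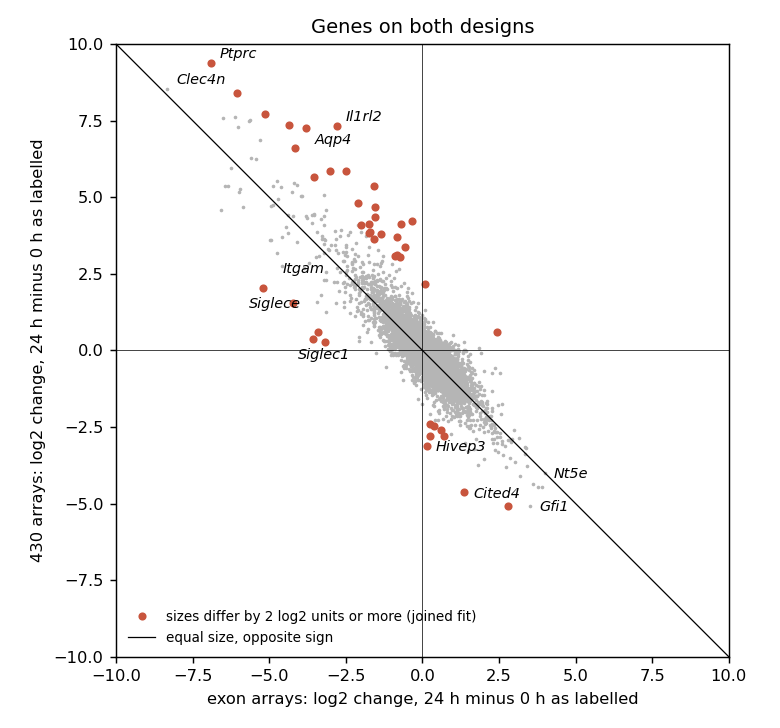
Log2 change as labelled on the 430 arrays (y axis) against that on the exon arrays (x axis) for 13356 genes (grey points), with the line of equal size and opposite sign. Red points are the 42 genes whose sum of changes was called and at least 2 log2 units; no gene with a large change on both designs lies in the quadrants of equal sign.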

How the data were processed

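RNA of PUER cells was measured on Affymetrix Mouse Exon 1.0 ST arrays, 3 per label, from 1.5 µg of total RNA with a step that reduces ribosomal RNA, per the labels' protocols. The deposited values are log2 signals per transcript cluster, made by the authors with Affymetrix Expression Console and genome build mm8, per the submitters' processing notes. The summarization and normalization are not given in the sources used here. Arrays have no read depth, so their number limits the precision.

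Groups were compared with limma 3.58.1 in R 4.3.3 (lmFit, eBayes, two-sided), fitted on all 23238 clusters with Benjamini-Hochberg adjustment over all of them and tested on simulated data. With 3 arrays against 3, the smallest p that an exact permutation test can give for 1 gene is 0.1. Gene names came from the platform annotation, updated through Entrez identifiers to RefSeq (GRCm38.p6), with 14884 of 14939 matched. Clusters with several symbols (989) or none (7310) were tested but not named. A gene is its 1-symbol cluster with the highest mean.

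Both designs were joined in 1 limma model on values centred per gene and design. The rule for named genes takes the 15 largest non-overlapping called changes in each direction, a fixed set of 20, up to 4 members per list with the largest change, members against a list's direction where these were 5 or fewer, and the 4 largest sums in each direction. The E2F-type promoters printed were added later. The members and the 31 lists (761 genes, 631 measured, 77 in over 1 list) were chosen with earlier results of these data known. Alternatives were quantile normalization, array medians removed, a filter on dim clusters, a variance trend, the replicate block, 1-symbol clusters only, gene means and each array left out.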

Additional observations from a re-analysis of the deposited data

Results flagged for a closer look

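The changes of 3 reported PU.1 targets differed between the 2 array designs under the same labels. The 430 change minus the exon change was 5.48 log2 units for Itgam, 5.56 for Csf1r and 11.90 for Adgre1, each by a test of the difference itself in the joined limma model. In all 3 genes every exon array labelled 24 h lay below every one labelled 0 h, and every 430 array labelled 24 h lay above every one labelled 0 h. Groups of 3 arrays are too small to look for single outlying arrays.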

How the results depend on the processing

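Of 176 named genes, 156 kept their direction and side of the threshold under every alternative run. Gata1, which was not called, turned sign when single arrays were left out, from -0.054 without 24 h array 2 to 0.083, with -0.013 and -0.047 without 0 h arrays 1 and 3. Leaving out 1 array gave 2571 to 3435 clusters higher and 1492 to 1920 lower. Of 403 list counts recomputed, 393 stayed within 1.5 times. The others were mitosis, 13 to 21 genes higher when 1 array was left out; chemoattractant receptors, 5 to 8 lower, and 5 with the replicate block; phagocyte oxidase, 1 to 3 lower, with 1 without 24 h array 2; mast cell and basophil genes, 2 to 4 higher, and 2 without clusters below the median level; and IL-3 and STAT5 response, 10 lower with quantile normalization, without clusters below the median level, with 1-symbol clusters and with gene means. List medians moved beyond the spread between arrays in 57 of 403 cases, 21 of them without dim clusters, where fewer genes are tested, and 16 with quantile normalization. Their sign turned in 6 cases, among progenitor factors, erythroid and lymphoid genes. The cause of the other shifts was not tested.

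Deviations from group means of same-numbered arrays correlated at -0.026, 0.009 and -0.052, and not every array correlated best with its own number. Such values cannot tell whether same-numbered arrays shared a culture. The replicate block gave 2752 clusters higher and 1528 lower. Sums between designs were called for 3305 genes with quantile normalization and 2687 with the mean of all 430 probe sets, and differences for 7446 and 7644. Named genes that lost a call when 1 array was left out were, besides those given above, Cyp11a1, Socs3 and Mcpt2.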
